A study of Mus musculus with 6 samples.

Results

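Integrins are cell-surface receptors that tie the extracellular matrix to the actin cytoskeleton, and laminins are matrix proteins that several of them bind. The genes described here are the integrin alpha and beta subunits and the laminin alpha, beta and gamma chains of the mouse. They were taken by gene symbol alone, as probe sets annotated to a single Itga, Itgb, Lama, Lamb or Lamc symbol, and a gene with several probe sets was represented by the brightest of them over the 6 arrays. This gave 36 of the 19938 genes on the arrays: 18 integrin alpha subunits, 8 integrin beta subunits and 10 laminin chains.

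An integrin is a pair of an alpha and a beta subunit, and the alpha subunit largely sets the ligand: fibronectin and other proteins with an RGD sequence, collagens, or laminins. Itgb1 pairs with most alpha subunits of connective tissue cells. A laminin is a trimer of an alpha, a beta and a gamma chain that, with nidogens, perlecan and type IV collagen, forms the basement membrane, the thin matrix sheet beside epithelia, vessels, muscle fibres and fat cells.

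Expression was measured once in each of 3 osteosarcoma lines, OS_493H, OS_494H and OS_716H, and in each of 3 cultures of differentiated KUSA4b10 cells, on Affymetrix mouse gene arrays with values on the log2 scale. The lines were grown from primary tumours of Osx-Cre+ C57Bl6 mice with Rb fl/fl and p53 fl/fl alleles, in which the Osterix promoter drives Cre in the osteoblast lineage. OS_493H (female) and OS_494H (male) came from hip tumours at ages 188 and 190, and OS_716H (female) from the tibia at age 226, with no unit of age given. KUSA4b10 is a C57Bl6 stromal line that had received 50 ug/ml ascorbate for 21 days from confluence. Both groups were kept in the same RPMI-based medium, and the labels give no ascorbate or differentiation time for the tumour lines, so tumour origin, growth state and differentiation cannot be told apart. The 3 cultures are 1 cell line. Their titles carry Ex1, Ex2 and Ex3, which may stand for separate experiments, but the meaning is not spelled out. Part of the spread between them may therefore be technical. Each group had 3 arrays, which limits the precision of every value.

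Rb1, a gene targeted in the tumour model, was 9.26, 9.70 and 9.87 in OS_493H, OS_494H and OS_716H, against 10.68, 10.66 and 10.66 in cultures 1, 2 and 3. Its probes may lie outside the deleted part, and Trp53 was not analysed here. The array labelled OS_716H, a female, carried the Y-linked transcripts Eif2s3y, Uty and Kdm5d at 10.11, 10.06 and 8.92 and Xist at 5.50, so it went against its label, and values without it are given where a call changes. Cultures 1 and 3 resembled each other most, with 3 genes more than 1 log2 unit apart, against 150 and 186 genes for the pairs with culture 2. Of 6 measured osteoblast markers, 3 (Ibsp, Phex and Dmp1) were lower in the lines, with a summed level (log2 of the sum of the unlogged values) of 13.16 to 14.17 in the lines and 14.65 to 15.41 in the cultures. Of 8 fat cell markers, 7 were lower in the lines, with a summed level of 11.04 to 11.75 in the lines and 14.01 to 14.82 in the cultures, so the cultures labelled as osteoblasts also carried fat cell transcripts. Of 6 smooth muscle markers, 3 (Cnn1, Tagln and Smtn) were higher in the lines, with a summed level of 14.16 to 14.72 in the lines and 12.89 to 13.80 in the cultures. The part of these other cell programmes in the results below was not tested. Fewer cells of a type and less RNA per cell cannot be told apart in these bulk samples.

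Of the 36 integrin and laminin genes, 3 passed as higher and 7 as lower in osteosarcoma (limma, with p-values adjusted over the 19938 genes by Benjamini-Hochberg, threshold 0.05). Higher were Itga5, Itga2b and Lamc1, and lower were Itga10, Itga8, Itgb3, Itgb2, Lama1, Lama2 and Lamb2. Over all genes 24.6% were called, 13.2% higher and 11.4% lower, and the 27.8% of these genes that were called lies near that background. Genes whose higher group mean lay above the median of all values were called more often, 2563 higher and 2156 lower of 11632. Of the 26 integrin and laminin genes among them, 3 were called higher and 6 lower. At least a 2-fold difference was found for 1 called gene that was higher and 4 that were lower, against 4.07% and 2.81% of all genes. The groups did not overlap for 5 higher and 8 lower genes, against 41.5% of all genes in either direction. The median difference was -0.05 log2 units, against -0.02 over all genes. Itga2b, Itga10, Lama1 and Lama2 kept their calls when any 1 array was left out. The calls of the other 6 genes were each lost without at least 1 array, and all 6 were lost with cultures 1 and 3 averaged as 1 replicate. Without culture 1 the counts were 1 higher and 3 lower. Without culture 2 they were 1 and 4, without culture 3 1 and 5, and without OS_716H 4 and 7.

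**Figure D1:**
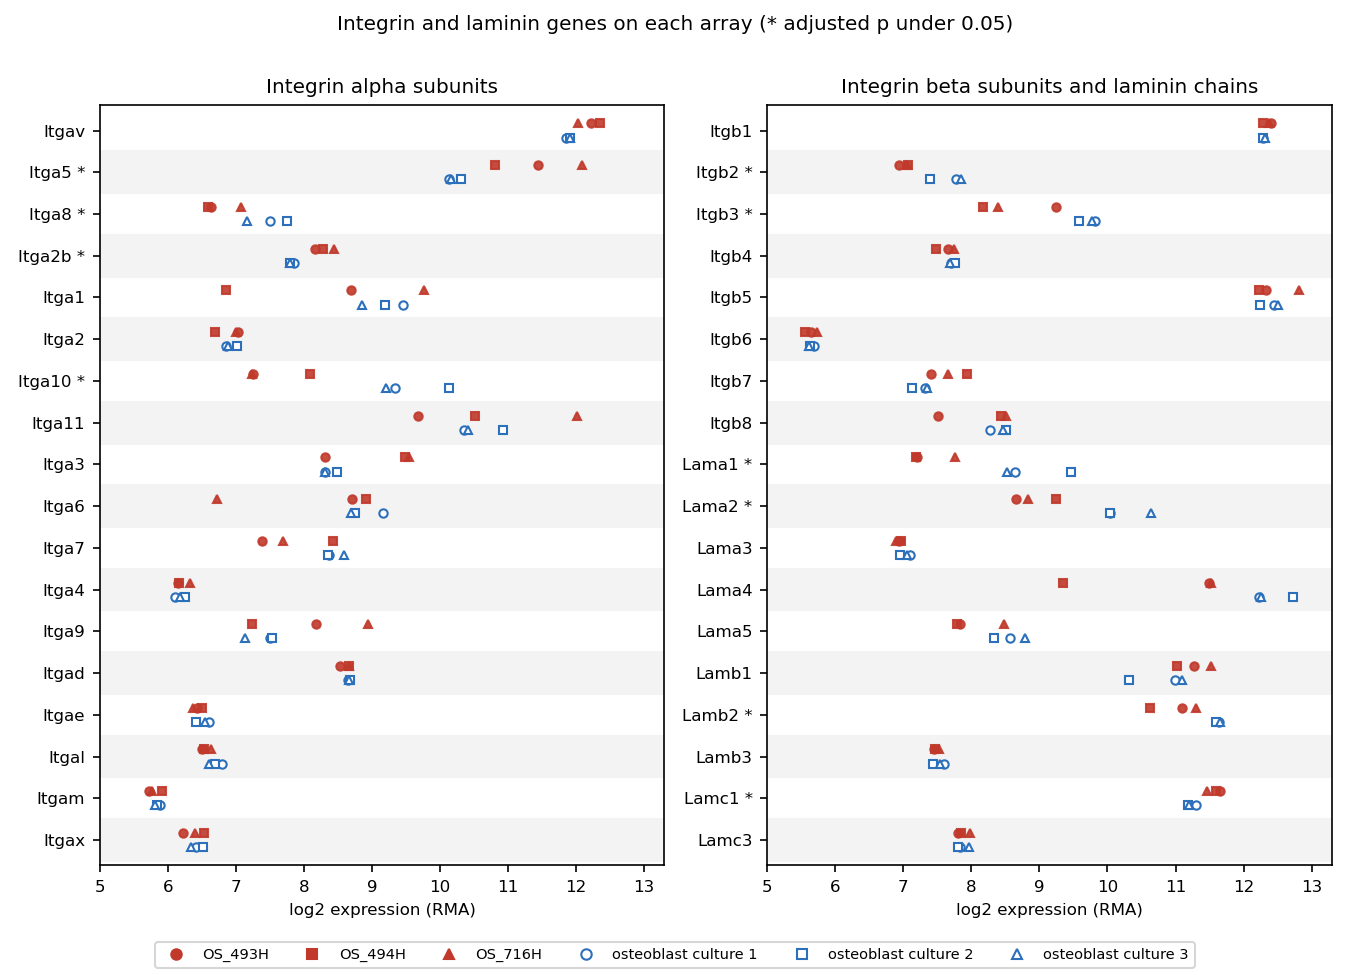
Log2 expression (horizontal axis) of the 18 integrin alpha subunits (left) and of the 8 integrin beta subunits and 10 laminin chains (right) on each of the 6 arrays. Filled red symbols are the osteosarcoma lines and open blue symbols the osteoblast cultures, and an asterisk marks an adjusted p under 0.05. For Itga10 the lines lie between 7.23 and 8.09 and the cultures between 9.20 and 10.13, while for Itgb1 all 6 arrays lie between 12.28 and 12.41. Levels of different genes are not comparable across rows.

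The promoters of Itga5, Itga10 and Lama2 are shown because these are the called genes with at least a 2-fold difference for which a promoter sequence was at hand. Each is the 250 bases before the annotated start, on the gene's strand, from RefSeq on build GRCm38.p6. Itga5 lies at chr15:103366792-103367041 on the minus strand, Itga10 at chr3:96645334-96645583 on the plus strand and Lama2 at chr10:27616943-27617192 on the minus strand. Capitals mark the matches to 5 short motifs searched on both strands: the GC box GGGCGG, the AP-1 site TGANTCA, the TEAD site GGAATG, the RUNX site TGTGGT and the TATA box TATAAA.
Itga5: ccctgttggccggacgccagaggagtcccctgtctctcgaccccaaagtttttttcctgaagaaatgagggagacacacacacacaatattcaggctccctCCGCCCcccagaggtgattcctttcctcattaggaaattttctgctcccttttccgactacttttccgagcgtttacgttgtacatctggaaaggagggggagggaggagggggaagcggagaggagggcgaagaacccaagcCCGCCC
Itga10: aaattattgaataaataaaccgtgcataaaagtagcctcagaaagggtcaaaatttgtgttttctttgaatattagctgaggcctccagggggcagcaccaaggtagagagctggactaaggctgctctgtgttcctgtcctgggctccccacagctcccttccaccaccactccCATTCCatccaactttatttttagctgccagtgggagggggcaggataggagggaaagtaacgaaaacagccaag
Lama2: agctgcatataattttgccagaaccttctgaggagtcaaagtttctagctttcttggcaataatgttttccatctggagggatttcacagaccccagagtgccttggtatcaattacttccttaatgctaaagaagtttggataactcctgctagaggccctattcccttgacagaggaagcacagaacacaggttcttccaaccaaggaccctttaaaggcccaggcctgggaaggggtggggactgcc
Itga5, the gene that rose, had 2 GC boxes, 149 to 144 and 6 to 1 bases before the start. Itga10, which fell, had 1 TEAD site at 75 to 70 bases before the start, and Lama2, which also fell, had no match. Promoters were found for 23 of the 36 genes, in 26 windows. A GC box stood in 34.6% of these windows and in 32.7% of 32851 windows of all genes, and a TEAD site in 11.5% and 12.6%. The shares were 3.85% and 6.75% for the AP-1 site, 7.69% and 14.0% for the RUNX site, and 0.0% and 12.4% for the TATA box. A match describes letters only, and none of these windows was measured for binding.

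The subunits that bind RGD proteins were divided. Itga5, the alpha subunit of the classical fibronectin receptor, had values of 11.44, 10.81 and 12.10 in OS_493H, OS_494H and OS_716H, against 10.14, 10.31 and 10.16 in cultures 1, 2 and 3. Every line lay above every culture, and the lines were spread more widely than the cultures. The mean was 11.45 ± 0.64 in the lines and 10.21 ± 0.09 in the cultures (SD, n = 3 each), a log2 difference of 1.24 ± 0.30 (SE, adjusted p = 0.025), or 2.37-fold higher. This call was lost without OS_493H (adjusted p = 0.0677) and without culture 1, 2 or 3 (0.0904, 0.0617 and 0.0866), with differences of 1.21 to 1.30. It was also lost with cultures 1 and 3 averaged (0.089). Itga2b, the platelet subunit that pairs with Itgb3, was 8.17, 8.28 and 8.45 in the 3 lines, against 7.85, 7.80 and 7.80 in the cultures, a small rise of 0.48 ± 0.09 (SE, adjusted p = 0.0105). Itga8, which pairs with Itgb1 and binds nephronectin, fell by 0.71 on the log2 scale, with values of 6.63, 6.59 and 7.07 in the lines, against 7.50, 7.75 and 7.17 in the cultures (adjusted p = 0.0365). These values are on the lower side of the median of all probe sets, 7.53, except in culture 2, and the call was lost on leaving out OS_493H, OS_494H, culture 1 or culture 2 (adjusted p up to 0.117).

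Itgav, the alpha subunit of the vitronectin receptors of bone and stromal cells, was 12.22, 12.35 and 12.03 in the lines, against 11.85, 11.91 and 11.91 in the cultures. All lines lay above all cultures, but the difference of 0.31 ± 0.10 (SE) did not pass (adjusted p = 0.0606). Without OS_716H it was 0.40 and passed (adjusted p = 0.0185). It also passed with median centring (0.035), with array weights (0.0201) and with a spread for each group (0.0488), and over all alternatives the adjusted p was 0.0185 to 0.186.

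Among the beta subunits, none was called higher and 2 were called lower. Itgb1, the common partner, was 12.41, 12.29 and 12.38 in the lines, against 12.28, 12.29 and 12.32 in the cultures. The groups overlapped, with a difference of 0.06 ± 0.07 (SE, adjusted p = 0.607). Itgb5, a partner of Itgav in vitronectin binding, was 12.33, 12.23 and 12.81 in the lines, against 12.44, 12.25 and 12.50 in the cultures, again with overlap (0.06 ± 0.16 SE, adjusted p = 0.841).

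Itgb3, the other main partner of Itgav and a subunit of osteoclasts and platelets, stood at 9.24, 8.17 and 8.40 in OS_493H, OS_494H and OS_716H, against 9.81, 9.59 and 9.77 in cultures 1, 2 and 3. Every line lay below every culture, OS_493H the least far. The mean was 8.60 ± 0.56 in the lines and 9.72 ± 0.12 in the cultures (SD, n = 3 each), a 2.18-fold lower level (log2 difference -1.12 ± 0.27 SE, adjusted p = 0.0243). The call was lost without OS_716H (adjusted p = 0.0647) and without culture 1, 2 or 3 (0.0904, 0.0559 and 0.0854). It was also lost with cultures 1 and 3 averaged (0.0887). Itgb2, the beta subunit of white blood cells, was 6.94, 7.06 and 7.06 in the lines, against 7.77, 7.40 and 7.85 in the cultures. This was a fall of 0.65 on the log2 scale (adjusted p = 0.0126). The call was lost without culture 1 (0.0586) and with cultures 1 and 3 averaged (0.053). The values of all lines and of culture 2 lie below the median of all probe sets, 7.53, and cannot be told from background without a detection call. Itgb7, also a white blood cell subunit, was 0.40 ± 0.14 (SE) higher without passing (adjusted p = 0.0913), although it passed without OS_493H (0.035). Itgb4 and Itgb6, epithelial subunits, and Itgb8, an activator of latent TGF-beta, differed by -0.09, -0.0015 and -0.26, none past the threshold.

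The alpha subunits of white blood cells, Itgal, Itgam, Itgax, Itgad and Itgae, were not called, with differences of -0.14 to -0.04. Blood cell markers were close as well: of 10, Cd14 was higher and Fcer1g lower, and the summed level was 10.22 to 10.28 in the lines and 10.13 to 10.25 in the cultures. The pan-leucocyte marker Ptprc averaged 6.17 in the lines and 6.27 in the cultures. Itgad was the only one of the 36 genes with more than 1 single-symbol probe set, and these disagreed: the dimmer one was 6.36, 6.38 and 6.39 in the lines, against 6.76, 6.88 and 6.61 in the cultures, a difference of -0.37 (adjusted p = 0.0244 over all 21789 such probe sets), against -0.04 for the brighter one.

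Of the 4 collagen-binding alpha subunits, 1 fell. Itga10, a collagen receptor best known from cartilage cells, measured 7.25, 8.09 and 7.23 in OS_493H, OS_494H and OS_716H, against 9.34, 10.13 and 9.20 in cultures 1, 2 and 3. The groups were separated by more than the spread within either. The mean was 7.53 ± 0.49 in the lines and 9.56 ± 0.50 in the cultures (SD, n = 3 each), a 4.09-fold lower level and, of the 36 genes, the largest difference (-2.03 ± 0.32 SE, adjusted p = 0.00563). The values of OS_493H and OS_716H lie below the median of all probe sets, 7.53, and cannot be told from background without a detection call, so the size of the fold and its rank rest on values near that limit. On leaving out 1 array the difference was -2.31 to -1.74 and the adjusted p at most 0.023.

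The other collagen receptors of connective tissue cells differed more between the lines than between the groups. Itga11, the collagen receptor of fibroblasts, was 9.67, 10.51 and 12.02 in OS_493H, OS_494H and OS_716H, and 10.36, 10.93 and 10.42 in the cultures. Itga1 was 8.69, 6.85 and 9.77 in the same lines, against 9.46, 9.19 and 8.85 in the cultures. In both genes OS_716H lay above every culture. OS_493H lay below every culture in both, as did OS_494H for Itga1, and neither group difference passed (0.16, adjusted p = 0.873, and -0.73, adjusted p = 0.512). Without OS_716H the difference of Itga11 was -0.48, and without OS_494H that of Itga1 was 0.06. Itga2, which is known from epithelia and platelets, differed by -0.01.

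None of the 3 laminin-binding alpha subunits was called. Itga6 was 8.70 and 8.91 in OS_493H and OS_494H but 6.72 in OS_716H, against 9.16, 8.76 and 8.70 in the cultures, a difference of -0.76 (adjusted p = 0.392) that was -0.07 without OS_716H. Itga3 showed another split, with 8.31 in OS_493H at the level of the cultures (8.31, 8.48 and 8.31) and 9.48 and 9.54 in OS_494H and OS_716H above it. Its difference of 0.74 did not pass (adjusted p = 0.151), but without OS_493H it was 1.14 and passed (0.00298). Itga7, known from muscle fibres, was 7.39, 8.44 and 7.69 in the lines, against 8.37, 8.36 and 8.59 in the cultures (-0.60, adjusted p = 0.146), and passed without OS_494H (0.00482). Itga9, a receptor for tenascin and other matrix proteins, was 8.18, 7.24 and 8.95 in the lines, against 7.50, 7.53 and 7.13 in the cultures (0.73, adjusted p = 0.254), and passed without OS_494H (0.0181). Its relative Itga4 differed by 0.03.

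**Figure D2:**
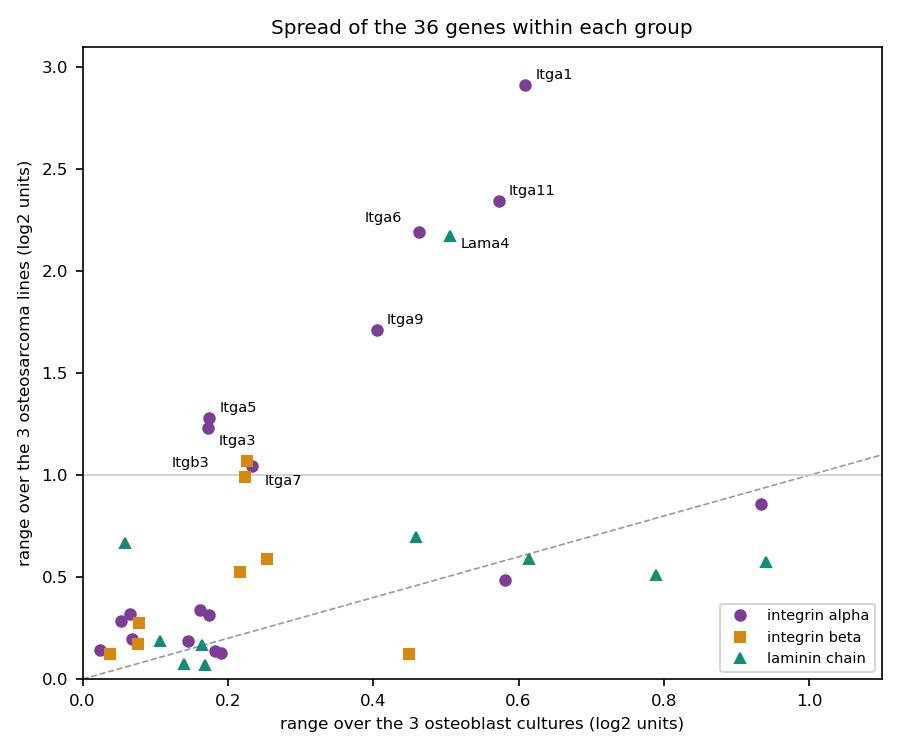
Range (highest minus lowest log2 value) over the 3 osteosarcoma lines (vertical axis) against the range over the 3 osteoblast cultures (horizontal axis) for each of the 36 genes. Symbols give the family, the dashed line marks equal ranges and the grey line 1 log2 unit, above which 9 genes are named. Itga1 reaches 2.91 over the lines, while no gene exceeds 0.94 over the cultures.

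The tumour lines also differed among themselves. The range over the 3 lines exceeded 1 log2 unit for 9 of the 36 genes (25.0%), against 4.98% of all genes, and the range over the 3 cultures did so for none of the 36 and for 1.15% of all genes. Among genes whose higher group mean lay above the median of all values, the share over the lines was 34.6% of 26 members and 7.44% of 11632 genes. These shares are descriptions, since the lines are single samples. The 9 genes were Itga1, Itga11, Itga6, Lama4, Itga9, Itga5, Itga3, Itgb3 and Itga7, 8 integrin subunits and 1 laminin chain. OS_716H was the highest line for 6 of the 9 and OS_494H the lowest for 5.

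Of the 5 laminin alpha chains, 2 fell in the lines and none rose. Lama1, the chain of early embryonic basement membranes, was 7.20, 7.19 and 7.77 in OS_493H, OS_494H and OS_716H, against 8.64, 9.46 and 8.52 in cultures 1, 2 and 3. The mean was 7.39 ± 0.33 in the lines and 8.88 ± 0.51 in the cultures (SD, n = 3 each), 2.81-fold lower (log2 difference -1.49 ± 0.28 SE, adjusted p = 0.0105). The values of OS_493H and OS_494H lie below the median of all probe sets, so the size of the fold has the same limit as for Itga10. All lines lay below all cultures, and the call held without any 1 array (adjusted p at most 0.0378). Lama2, the chain of muscle and nerve sheaths, was 8.65, 9.24 and 8.83 in the lines, against 10.03, 10.04 and 10.65 in the cultures. Its groups were also separate, 2.51-fold lower in the lines (-1.33 ± 0.22 SE, adjusted p = 0.00635, and at most 0.0221 without any 1 array). Fat cell markers, 7 of 8 lower in the lines, and 3 of 6 osteoblast markers moved with these chains, and their part in the difference was not tested.

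Lama4, the chain of vessel walls and fat tissue, was 11.50 and 11.52 in OS_493H and OS_716H and 9.35 in OS_494H, against 12.23, 12.73 and 12.25 in the cultures. All lines lay below all cultures, but OS_494H stood 2.15 log2 units below the next line, and the difference of -1.62 ± 0.58 (SE) did not pass (adjusted p = 0.0932). Without OS_494H it was -0.90 and passed (0.012). Lama5, a chain found in most adult basement membranes, was 7.83, 7.78 and 8.48 in the lines, against 8.57, 8.33 and 8.79 in the cultures (-0.53, adjusted p = 0.127), and passed without OS_716H (-0.75, adjusted p = 0.0165). Lama3, the chain of skin and other epithelia, and its partner Lamb3 differed by -0.10 and -0.05, and of 7 epithelial markers none was called.

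The chains that join these alpha chains went different ways. Lamc1, the gamma chain of most laminins, was 11.66, 11.60 and 11.47 in the lines, against 11.30, 11.19 and 11.20 in the cultures. It rose by a small amount, 0.35 ± 0.08 (SE, adjusted p = 0.0226), a call lost without OS_493H or without any 1 culture (adjusted p up to 0.0892). Lamb1, its usual beta partner, was 11.28, 11.02 and 11.53 in the lines, against 11.00, 10.31 and 11.10 in the cultures, with overlap and no call (0.47 ± 0.23 SE, adjusted p = 0.205). Lamb2, the beta chain of synapses and kidney filters, was 11.10, 10.63 and 11.29 in the lines, against 11.64, 11.60 and 11.66 in the cultures. It fell by 0.63 on the log2 scale (adjusted p = 0.0361), lost without OS_493H (0.0709) or without any 1 culture (up to 0.114), and also with the arrays centred on their medians (0.058). Lamc3 differed by 0.01.

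**Figure D3:**
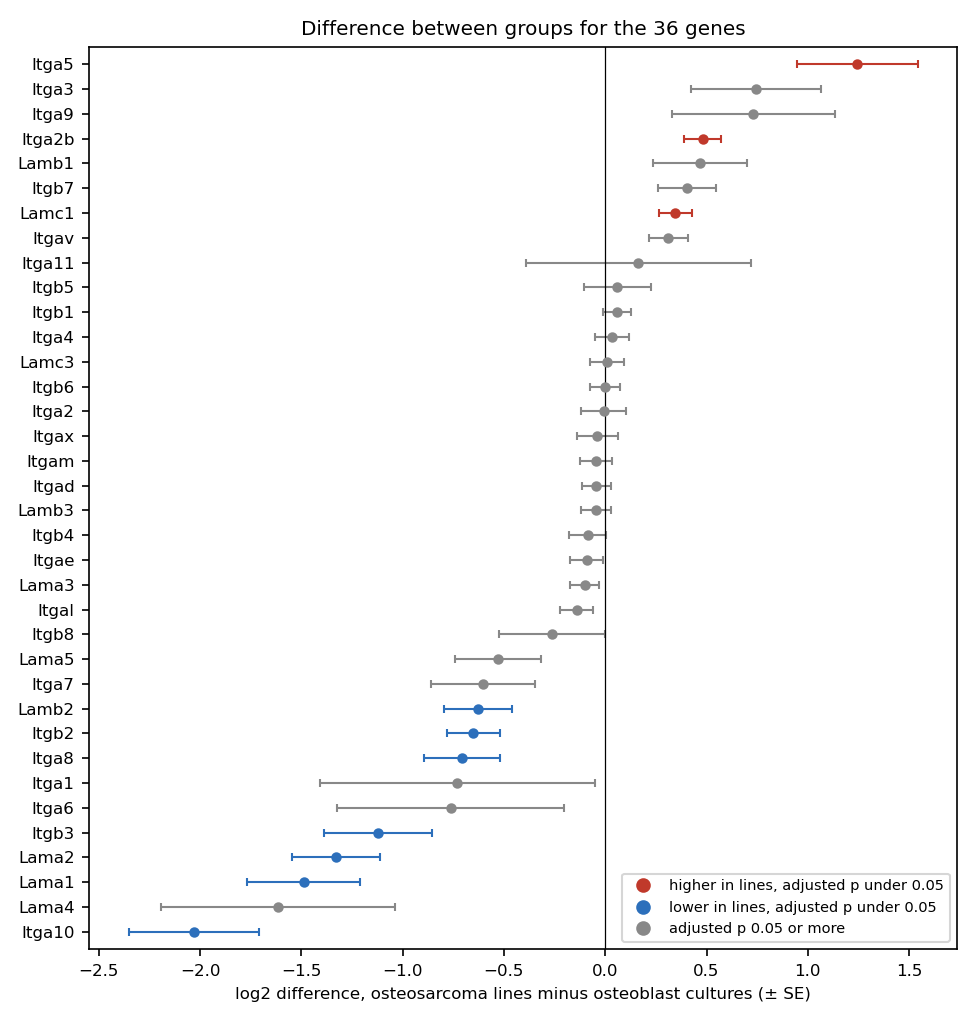
Log2 difference, osteosarcoma lines minus osteoblast cultures (horizontal axis), with its standard error for each of the 36 genes, sorted by size. Red marks genes higher in the lines, blue genes lower in the lines (adjusted p under 0.05) and grey the other 26, which lie between -1.62 (Lama4) and 0.74 (Itga3).

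The differences of subunits that join in known receptors and trimers stood as follows. In the fibronectin receptor, Itga5 differed by 1.24 and its partner Itgb1 by 0.06. In the vitronectin receptors, Itgav differed by 0.31, Itgb3 by -1.12 and Itgb5 by 0.06. In trimers that Lamb1 and Lamc1 share, Lama1 and Lama2 differed by -1.49 and -1.33, Lamb1 by 0.47 and Lamc1 by 0.35. These are log2 differences between groups for each gene, and they say nothing of how much of each protein or trimer was present.

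Other basement membrane genes also split. Of 22 measured, 7 rose and 4 fell in the lines, so that 50.0% were called, against 24.6% of all genes (13.2% higher and 11.4% lower). By their higher group mean 15 of the 22 lay above the median of all values, where 2563 of 11632 genes were called higher and 2156 lower. The median difference was -0.02, the same to 2 decimals as over all genes. The nidogens Nid1 and Nid2, which link laminin to type IV collagen, rose 2.54- and 2.55-fold (adjusted p = 0.0065 and 0.00279). Nid1 was 12.71, 12.03 and 12.47 in the lines, against 11.32, 10.70 and 11.16 in the cultures. Perlecan (Hspg2) rose 1.79-fold (adjusted p = 0.00484). The type IV collagen chains Col4a1 and Col4a2 fell 3.11- and 4.20-fold (adjusted p = 0.0013 and 8.48e-04), and Col15a1, a collagen that borders basement membranes, fell 3.40-fold. Another type IV chain, Col4a5, went the other way and rose 1.38-fold (adjusted p = 0.00974), while Col4a3, Col4a4 and Col4a6 were not called. Smoc2, a calcium-binding matrix protein, rose 3.35-fold (adjusted p = 0.0485), a call lost on leaving out any 1 array except OS_494H. With all arrays kept it was also lost with quantile normalisation (0.0513), robust moderation (0.0568) and cultures 1 and 3 averaged (0.142). Its relative Smoc1 went the other way, 3.52-fold lower in the lines, with overlap and without passing (adjusted p = 0.0701).

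**Figure D4:**
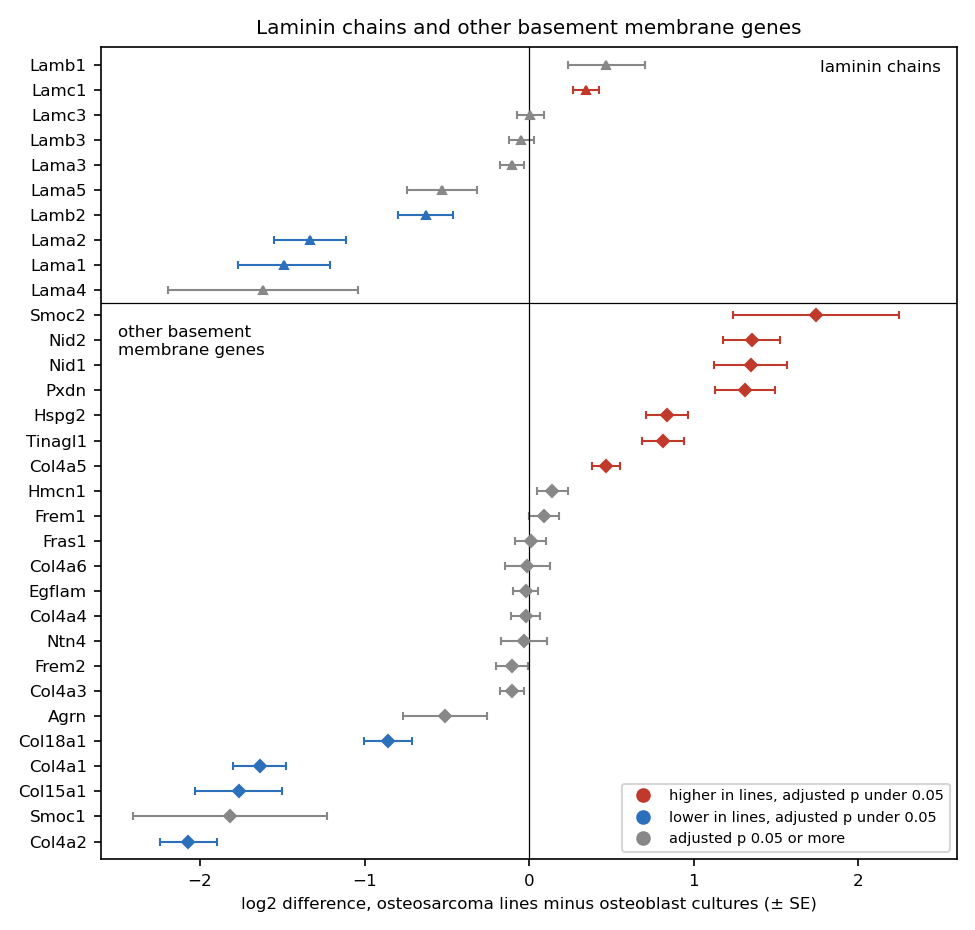
Log2 difference, osteosarcoma lines minus osteoblast cultures (horizontal axis), with its standard error for the 10 laminin chains (triangles, above the line) and 22 other basement membrane genes (diamonds, below it). Red marks genes higher and blue genes lower in the lines at an adjusted p under 0.05. Nid1 and Nid2 lie at 1.35, and Col4a2 lies at -2.07 and Lama1 at -1.49.

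The further ligands of integrins held some of the widest differences. Of 32 measured, 5 rose and 4 fell (median difference 0.18), and the 28.1% called lies near the 24.6% of all genes. By their higher group mean 27 of the 32 lay above the median of all values, where calls were more frequent. Bone sialoprotein (Ibsp), an RGD protein of bone, fell 71.5-fold, at 7.07 ± 0.99 in the lines and 13.23 ± 0.40 in the cultures (SD, n = 3 each, adjusted p = 7.14e-04). In OS_493H and OS_494H it was 6.60 and 6.40, near the 6.17 of Ptprc in the lines, so the size of this fold rests on values that cannot be told from background. Tgfbi, a matrix protein bound by several integrins, rose 8.54-fold, with 11.61, 11.24 and 13.50 in the lines, against 8.92, 9.40 and 8.74 in the cultures. Edil3, an RGD ligand of Itgav receptors, rose 3.78-fold. Tgfb1, whose latent form is activated by Itgav receptors, fell 3.65-fold. Fibronectin (Fn1), the ligand of Itga5, fell slightly, by 0.28 on the log2 scale (adjusted p = 0.0231). On leaving out 1 array, this call held only when that array was OS_716H. With all arrays kept it was lost with median centring (0.0702) and with cultures 1 and 3 averaged (0.0848).

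Inside the cell, genes of focal adhesions, the complexes that link integrins to actin, went mainly upward where they were called. Of 45 measured, 12 rose and 3 fell, with a median difference of 0.20, against 13.2% and 11.4% of all genes. By their higher group mean 39 of the 45 lay above the median of all values, where 2563 of 11632 genes were called higher and 2156 lower. The LIM domain proteins Fblim1, Tes, Pdlim7 and Zyx rose 2.44-, 2.29-, 2.15- and 2.02-fold, each called without any 1 array. Among the other LIM domain proteins of the list, Lpp and Pxn also rose and Lims1 fell (log2 difference -0.33, adjusted p = 0.023). Lims2, Lpxn, Pdlim5 and Tgfb1i1 were not called. Zyx was 12.04, 11.45 and 11.56 in the lines, against 10.54, 10.64 and 10.81 in the cultures. The tensin Tns3 fell 2.17-fold (adjusted p = 0.02), lost without OS_493H, culture 1 or culture 3 (up to 0.0813) and with cultures 1 and 3 averaged (0.081). Smooth muscle markers, 3 of 6 higher in the lines, moved with this list, and their part in it was not tested.

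Dystroglycan and the proteins bound to it form the other main laminin receptor. Of 16 measured genes in a list for this complex, 1 rose and 4 fell (median difference -0.10), or 31.2% called, against 24.6% of all genes. By their higher group mean 14 of the 16 lay above the median of all values, where calls were more frequent. The list also held Bcam, a separate laminin receptor, and the glycosylation enzymes Pomt1, Pomt2 and Pomgnt1. These are not part of the complex, and none of them was called. Beta-sarcoglycan (Sgcb) fell 2.20-fold, at 10.24, 10.47 and 10.06 in the lines, against 11.47, 11.28 and 11.43 in the cultures. Sgca and utrophin (Utrn) fell 1.55- and 1.52-fold, and sarcospan (Sspn) rose 1.42-fold. Sgca was 6.72, 6.72 and 6.91 in the lines, against 7.31, 7.64 and 7.28 in the cultures. All but culture 2 lie below the median of all probe sets, 7.53, so the size of this fold has the same limit as for Itga10. Dystroglycan itself (Dag1) differed by -0.20 and did not pass (adjusted p = 0.101), although all lines lay below all cultures. It passed with quantile normalisation (-0.26, adjusted p = 0.0384) and with array weights (-0.25, adjusted p = 0.0459).

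Of 16 membrane proteins that associate with integrins, 3 rose and 6 fell (median difference -0.18), or 56.2% called, against 24.6% of all genes. By their higher group mean all 16 lay above the median of all values, where 2563 of 11632 genes were called higher and 2156 lower. The share of 24.6% is therefore a low background for this list. The syndecan Sdc2, a heparan sulphate co-receptor, fell 2.06-fold and Slc3a2, the heavy chain of CD98 that binds integrin tails, 1.88-fold. Slc3a2 did not pass without culture 1 or without culture 3 (adjusted p up to 0.0519), nor with cultures 1 and 3 averaged (0.0507). Caveolin (Cav1) and the tetraspanin partner Ptgfrn rose 1.80- and 1.56-fold.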

How the data were processed

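Total RNA of 6 samples was hybridised to 1 array each, with 3 osteosarcoma lines and 3 osteoblast cultures grouped by their titles. The deposited values are log2 expression per probe set, made by the authors with RMA and build mm9, per the submitters' processing notes. RMA equalises the probe distributions of all arrays and leaves no detection call, and the software version is not given in the sources used here. No scan dates or batches were used here. Of 35556 probe sets, 21789 had 1 gene symbol in the platform annotation, 1621 had several and 12146 were not listed. Those with 1 symbol gave 19938 genes. A total of 3 probe sets shared by Rpl35 and Itgam were left out.

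The comparison was fitted by limma 3.58.1 under R 4.3.3, with lmFit and a two-sided moderated test from eBayes over all 6 arrays, with Benjamini-Hochberg adjustment over all genes and a threshold of 0.05. Differences are osteosarcoma minus osteoblast. The fit was also run on simulated data with independent noise of equal spread in both groups. In these data 65.8% of all genes ranged more widely over the lines than over the cultures. That run therefore checks the code only and not the calls. The genes and lists were chosen with earlier results of these data known, so no list was tested as a set. Older symbols were matched through RefSeq synonyms. Values on every array were given for called genes with at least a 2-fold difference and for Itgav, Itgb1, Itgb5, Lama5, Lamb1 and Lamc1, by rule, and for other members where the text turns on them. From each further list up to 4 called genes with the largest difference were named, and Nid1, Nid2, Hspg2, Fn1, Zyx and Dag1 were added after their values were seen. So were Smoc1, Col4a3 to Col4a6, the further LIM domain proteins, Bcam, Pomt1, Pomt2 and Pomgnt1. Alternatives were 17 other settings of normalisation, filter, moderation, weights, probe sets, threshold and samples.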

Additional observations from a re-analysis of the deposited data

How the results depend on the processing

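No paired analysis was possible, since the tumour lines and the cultures of the stromal line are separate samples that do not pair. Of the 36 integrin and laminin genes, 3 were higher and 7 lower as reported. The counts were 5 higher and 6 lower with median centring, 0 higher and 2 lower at an adjusted p under 0.01, 1 and 4 with at least a 2-fold difference, and 1 and 3 with cultures 1 and 3 averaged as 1 replicate. Leaving out 1 array gave 1 to 4 higher and 3 to 8 lower. Further genes (131 in 5 lists) gave 28 higher and 21 lower, 12 and 9 with at least a 2-fold difference, 10 lower at an adjusted p under 0.01, 12 lower with cultures 1 and 3 averaged, and 20 to 35 higher and 11 to 22 lower on leaving out 1 array. All genes gave 2622 higher and 2274 lower. The counts were 1394 and 1072 at an adjusted p under 0.01, 811 and 561 with at least a 2-fold difference, and 1606 and 1316 with cultures 1 and 3 averaged. Leaving out 1 array gave 1533 to 2796 higher and 1211 to 2314 lower. The stricter thresholds lower the counts by construction, and for the other settings the cause was not tested. Median centring added Itgav and Itgb7 and dropped Lamb2, array weights added Itgav, Itga7 and Lama5, and a spread for each group added Itgav.

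Over the 15 or 16 alternatives that gave a difference for each gene, none of the 10 called integrin and laminin genes changed sign, and 13 genes without a call did. On leaving out 1 array they ranged from -1.39 to 0.0622 for Itga1, -0.48 to 0.69 for Itga11, -0.0687 to 0.10 for Itga2, -0.0252 to 0.0705 for Itga4, -0.0693 to 0.0027 for Itgad, -0.11 to 0.0422 for Itgax, -0.12 to 0.17 for Itgb5, -0.0437 to 0.043 for Itgb6, -0.44 to 0.0557 for Itgb8 and -0.0418 to 0.0569 for Lamc3. Median centring turned Itga2 to 0.0576, Itgad to 0.0205, Itgam to 0.0213, Itgax to 0.0256, Itgb6 to 0.0633 and Lamb3 to 0.0184. Quantile normalisation turned Itgb1 to -0.001, Itgb6 to 0.0351 and Lamc3 to -0.0292. Array weights turned Itga11 to -0.12, Itga2 to 0.0666, Itgb5 to -0.023 and Lamc3 to -0.0284, and averaging cultures 1 and 3 turned Itgb6 to 0.0012. The cause was not tested. Signal near the array background cannot be told from absence here, since the values carry no detection call.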

Other observations

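Some of these genes are neighbours among the protein-coding genes of the RefSeq table. Itga1 and Itga2, which both encode collagen-binding subunits, stand next to each other. Itga1 ranged over 2.91 log2 units among the 3 lines, and Itga2 over 0.34. Itgam, Itgax and Itgad also stand side by side, and all 3 differed by -0.04 between the lines and the cultures, with Itgad read from its brighter probe set (its dimmer one differed by -0.37).

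While the type IV collagen chains Col4a1 and Col4a2 fell in the lines and Col4a5 rose, Pxdn, a peroxidase that crosslinks type IV collagen, rose. It was 11.42, 10.85 and 11.39 in OS_493H, OS_494H and OS_716H, against 9.90, 10.13 and 9.71 in cultures 1, 2 and 3, which is 1.31 ± 0.18 higher on the log2 scale (SE, adjusted p = 0.0036 by limma). Ccn1, a secreted matrix protein that binds integrins, was 0.94 ± 0.23 higher (SE, limma adjusted p = 0.028). The call held without culture 2 but on leaving out any other array the adjusted p was 0.0537 to 0.0987. With all arrays kept it was lost with cultures 1 and 3 averaged (0.0838) and with a spread for each group (0.053). Both genes were picked after their values were seen.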
